A study of Mus musculus with 4 samples.

Results

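Cytochrome P450 genes were examined in glomeruli of 3-week-old mice, with the members taken as the protein-coding genes whose symbol is Cyp, a family number, a subfamily letter and a gene number, at a mean of at least 1 TPM over the 4 libraries. TPM is a length-corrected share of a library's reads, and the length correction lets levels be compared between genes. Every library has the same total, so a rise in some genes lowers the share of the others. There were 42 members among 18612 genes at or above that mean. The table used here held 53 protein-coding genes of this pattern, and GENCODE M21 annotates 98. The other 11 lay below 1 TPM on average. Just inside the limit were Cyp26c1 (mean 1.08 TPM) and Cyp2r1 (1.46 TPM), and just outside were Cyp4f39 (0.947 TPM) and Cyp2j8 (0.898 TPM). Cyp2b9, Cyp26a1, Cyp2c69, Cyp2d11, Cyp8b1, Cyp4f15, Cyp17a1, Cyp4a30b and Cyp2c65 were between 0.723 and 0.155 TPM. Cyp51, which has no subfamily letter, is not a member.

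The knockout group was 2 libraries labelled HDAC KO, from mice with Hdac1 and Hdac2 deleted in podocytes, and the control group was 2 wild-type libraries with no treatment. All were poly(A) RNA of freshly isolated glomeruli, each library pooled 2 mice, and 2 independent experiments were made per the design text. The sources used here do not name the driver of the deletion, the strain or the sex of the mice. Podocytes are 1 of several glomerular cell types, so the other cells of these libraries carry no deletion by design. The comparison sets P450 transcripts of glomeruli with both deacetylases deleted in podocytes against those of wild-type glomeruli.

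P450 enzymes are heme proteins that insert an oxygen atom into a substrate. Those of the endoplasmic reticulum receive electrons from cytochrome P450 reductase, and those of mitochondria from ferredoxin. Some clear drugs and foreign chemicals, and others act on the body's own fatty acids, sterols, vitamin D and retinoic acid. In the kidney most P450 protein lies in the proximal tubule, which also makes the active form of vitamin D, and the arachidonic acid products of the tubular enzymes act on vessel tone and sodium transport.

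The libraries differed in ways that touch these genes. Mitochondrially encoded transcripts held 40.8% and 38.7% of the TPM in the knockout libraries and 40.2% and 46.5% in control libraries 1 and 2. The factors of median-ratio scaling were 1.04 and 1.13 for the knockout libraries and 0.81 and 1.04 for the controls. The part of these 2 differences in the P450 values was not tested. Hdac1 was at 22.9 and 22.5 TPM in the knockout libraries, against 19.3 and 18.6 TPM in the controls, and Hdac2 at 23.5 and 20.9 TPM against 20.2 and 24.1 TPM. Neither was lower in both knockout libraries (log2 fold changes 0.25, SE 0.17, and 0.01, SE 0.19), which gives no check of the genotype labels. A list of 24 proximal tubule markers with no P450 gene in it summed to 5879 and 7123 TPM in knockout libraries 1 and 2 and to 47119 and 11447 TPM in control libraries 1 and 2. Without Kap, an androgen-regulated kidney gene, the sums were 4875 and 5922 TPM in the knockout libraries and 16056 and 10460 TPM in the controls. Of the 24 markers, 23 were lower in both knockout libraries than in both controls, against 14.3% of all tested genes, and none was at 0. Their median log2 difference was -1.43, and -0.82 without control library 1. Of 5 tested hepatocyte markers, 3 were lower without overlap (all tested genes 14.3%) and 1 higher (36.7%). Alb was at 0.954 and 2.20 TPM in the knockout libraries and 2.81 and 6.71 TPM in the controls, while Fgb was at 82.9 and 48.6 TPM against 0.588 and 8.44 TPM in the controls and Ttr at 28.5 and 43.05 TPM against 169 and 45.3 TPM. Podocyte markers, 16 genes, summed to 773 and 1017 TPM in the knockout libraries and to 1362 and 1583 TPM in the controls. Immune markers summed to 1744 and 1916 TPM in the knockout libraries and to 134 and 405 TPM in the controls. Xist, the transcript of the inactive X chromosome, was at 0.109 and 0.127 TPM in the knockout libraries and at 0.09994 and 173 TPM in control libraries 1 and 2. Ddx3y, a Y-linked gene, was at 25.1 and 26.1 TPM in the knockout libraries and at 23.6 and 8.45 TPM in the controls. Control library 2 was thus the 1 library with both kinds of sex-linked transcript. In pooled tissue, fewer cells of a type and less RNA per cell cannot be told apart, and the part of the tubular, immune and sex-linked differences in the P450 values was not tested.

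Summed over the 42 genes, P450 transcripts were at 2334 and 2117 TPM in the knockout libraries and at 7011 and 2695 TPM in control libraries 1 and 2. Control library 1 held far more than the other libraries, while control library 2 lay just above the knockout libraries. The most abundant members by mean level were Cyp2j5, Cyp2e1, Cyp4b1 and Cyp2d26. The top 10 held 79.6% and 76.1% of the P450 TPM in the knockout libraries and 92.8% and 85.2% in the controls. Family 2, with 19 genes, made up 67.2% and 65.1% of the P450 TPM in the knockout libraries and 61.1% and 63.3% in the controls. Family 4, with 11 genes, made up 23.6% and 22.1% in the knockout libraries and 37.0% and 31.3% in the controls. Families 1 and 26 had 2 members each and family 27 had 2, while families 3, 7, 20, 24, 39 and 46 had 1 member each.

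**Figure D1:**
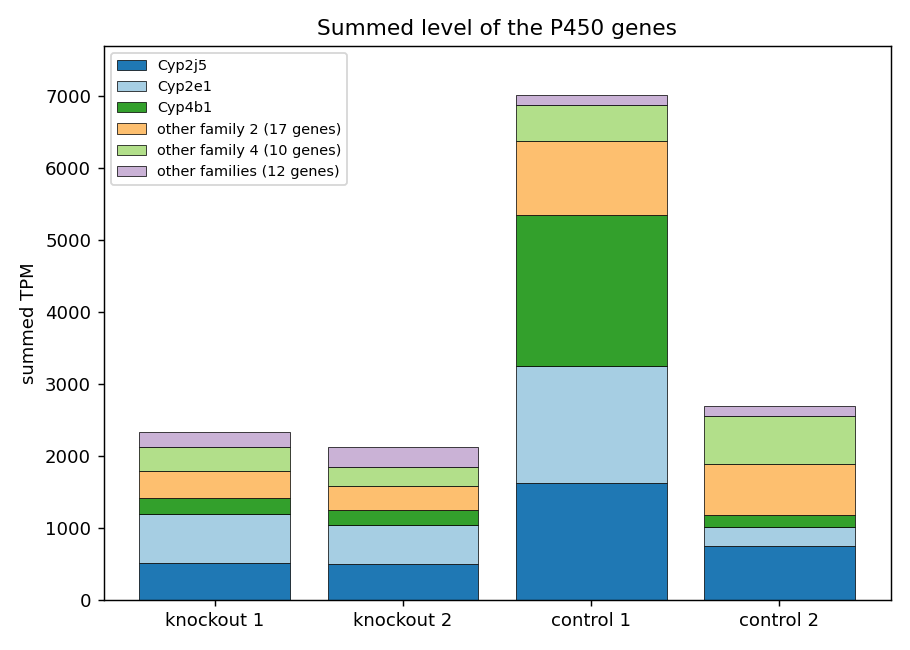
Stacked bars give the summed TPM of the P450 genes (vertical axis) in the 2 knockout libraries and the 2 control libraries, divided into the 3 most abundant genes, the other genes of families 2 and 4, and all other families. The bar of control library 1 reaches 7011 TPM, while the other libraries lie between 2117 and 2695 TPM.

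No P450 gene passed the test. Knockout and control libraries were compared by limma on log2(TPM + 1) over all 18612 genes, with a call at a Benjamini-Hochberg adjusted p below 0.05, and 1 gene in all was called (0.00537% of those tested, and lower). Among P450 genes, limma called 0, and voom on reads recovered from the TPM values called 0 as well. Without control library 2, a fit that rests on control library 1 alone, limma called 14 members (33.3%) and 11.2% of all tested genes. At an unadjusted p below 0.05, limma had 8 members lower and 9 higher, where the shares over all tested genes were 4.46% lower and 13.4% higher. Fold changes below are on the log2(TPM + 1) scale, knockout minus control, and understate the change of genes at low TPM.

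The direction of the values differed between members. Both knockout libraries were below both controls for 14 members (33.3%), against 14.3% of all tested genes. Both were above both controls for 13 members (31.0%), against 36.7% of all tested genes. In the other 15 the groups overlapped. The median log2 fold change of the 42 was -0.18, or -0.35 relative to the median of 0.17 over all tested genes, which median-ratio scaling moved to -0.03. The members' own median was -0.36 under that scaling and -0.38 under quantile normalization. Without control library 1 the median was 0.03, with 18 members below and 20 above the remaining control, so its sign turned with that library. The median over all tested genes in that setting was 0.04, close to that of the members. The shares of all tested genes given above do not apply to a single control. By family, 9 of 19 members of family 2 were lower without overlap and 4 higher. In family 4, 3 of 11 were lower and 3 higher. Of the 12 members outside these families, 2 were lower, 6 higher and 4 overlapped.

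**Figure D2:**
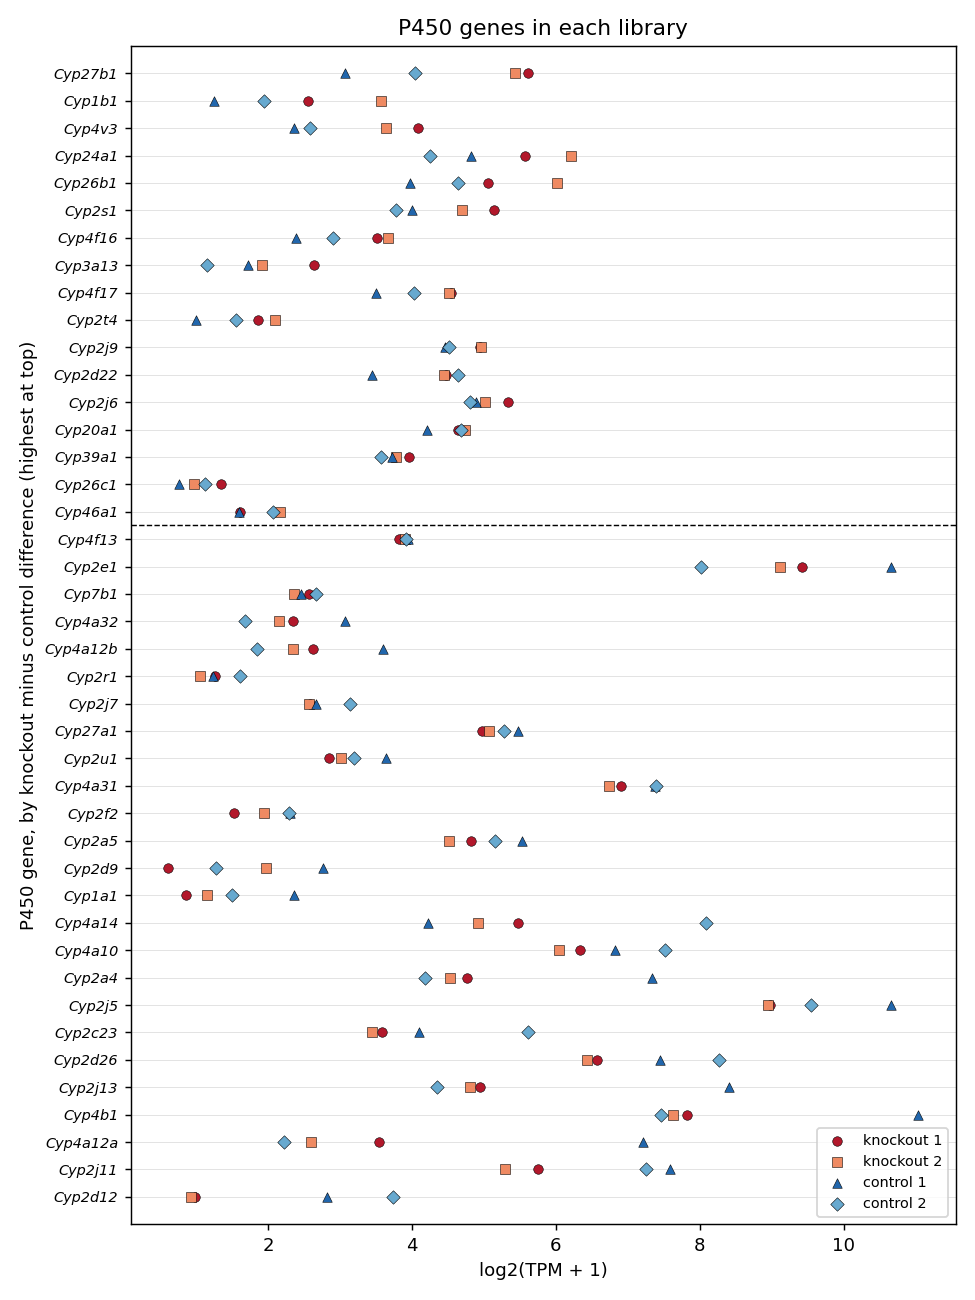
Each row is a P450 gene and each symbol a library, placed by its level as log2(TPM + 1) on the horizontal axis, with the genes sorted by their knockout minus control difference and a dashed line at the change of sign. The knockout symbols lie right of the controls at the top of the plot (Cyp27b1, Cyp1b1, Cyp4v3), and control library 1 lies far right of the other 3 libraries for Cyp4b1, Cyp4a12a, Cyp2j13 and Cyp2a4.

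Among the vitamin D enzymes, the kidney's 1-alpha-hydroxylase and its 24-hydroxylase were both higher in the knockout libraries. Cyp27b1, whose mitochondrial enzyme makes the hormone 1,25-dihydroxyvitamin D, was at 47.8 and 42.2 TPM in the knockout libraries and at 7.37 and 15.4 TPM in the controls, from 881, 908, 127 and 212 reads in the same order. The knockout libraries did not overlap the controls and their mean was 3.95-fold higher (log2 fold change 1.97, SE 0.34, limma adjusted p = 0.106). The alternatives gave adjusted p-values from 0.00971, without control library 2, to 0.394. Cyp24a1, whose enzyme starts the breakdown of that hormone and of its precursor, was at 46.7 and 72.9 TPM in the knockout libraries and at 27.2 and 18.0 TPM in the controls. The groups were again apart, 2.64-fold in mean TPM (log2 fold change 1.36, SE 0.30, adjusted p = 0.124). Cyp27a1, the sterol 27-hydroxylase that can also 25-hydroxylate vitamin D, was at 30.2 and 32.6 TPM in the knockout libraries and at 43.3 and 37.7 TPM in the controls, lower without overlap (log2 fold change -0.35, SE 0.17, adjusted p = 0.350). Cyp2r1, the vitamin D 25-hydroxylase best known from liver, was near the limit of 1 TPM, at 1.39 and 1.07 TPM in the knockout libraries and at 1.34 and 2.03 TPM in the controls, and its groups overlapped. No sequence window of 50 bases in the transcripts of these 4 genes recurred in another Cyp gene of the annotation.

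The promoter of Cyp27b1 is printed because this gene had the largest positive difference of the 42. The window runs from 250 bases before to 50 after the RefSeq start, on the plus strand at chr10:127047996-127048295 (RefSeq, GRCm38.p6), and is written 5′ to 3′.
Cyp27b1: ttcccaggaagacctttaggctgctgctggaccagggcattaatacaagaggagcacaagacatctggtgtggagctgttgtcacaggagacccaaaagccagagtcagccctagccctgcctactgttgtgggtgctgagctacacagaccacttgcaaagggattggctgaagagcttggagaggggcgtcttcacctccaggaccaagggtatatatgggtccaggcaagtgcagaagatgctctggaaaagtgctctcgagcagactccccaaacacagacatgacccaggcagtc
A window was found for 28 of the 42 members, 29 windows in all, and 4 short motifs were searched on both strands in them and in all 32851 windows of the table. They were the xenobiotic response element core GCGTG, the nuclear receptor half-site AGGTCA, the steroid receptor half-site AGAACA and the TATA box TATAAA. None of these letters is in the Cyp27b1 window, so nothing in it is in capitals. Member windows held GCGTG in 34.5% (all windows 32.4%), AGGTCA in 17.2% (16.3%), AGAACA in 20.7% (19%) and TATAAA in 31.0% (13.6%). A match here is a run of letters and not a known binding site.

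The partners of the vitamin D enzymes went in both directions. Of 15 listed genes of vitamin D and phosphate handling, 14 were tested by limma and 0 passed, while 8 were lower without overlap and 3 higher, and 6 were lower and 3 higher at an unadjusted p below 0.05. Over all tested genes the shares were 14.3% lower and 36.7% higher without overlap, and 4.46% and 13.4% at that p. Vdr, the vitamin D receptor, was at 70.4 and 78.2 TPM in the knockout libraries and 105 and 77.4 TPM in the controls, with overlap, and was chosen after its values were seen. Lrp2, the endocytic receptor that takes up filtered vitamin D, was at 363 and 415 TPM in the knockout libraries and at 1453 and 997 TPM in the controls. Cubn, its partner in uptake, was at 105 and 97.7 TPM in the knockout libraries and 162 and 190 TPM in the controls. Both receptors are members of the proximal tubule list, so their lower values are not separate from those of that list. The same holds for Slc34a1, another of the lower genes. Calb1, given below, is also on the list of loop, distal tubule and collecting duct markers. Slc34a3, a sodium-phosphate cotransporter, was at 14.6 and 22.2 TPM in the knockout libraries and at 70.8 and 65.4 TPM in the controls. The calbindin gene Calb1, a distal calcium-binding protein that vitamin D is known to induce, was at 88.9 and 78.1 TPM against 297 and 209 TPM in the controls. Trpv5, a distal calcium channel, stood the other way, at 208 and 83.5 TPM against 39.9 and 39.2 TPM in the controls, and was added after its values were seen. Gc, which encodes the carrier of vitamin D in plasma, was at 147 and 142 TPM in the knockout libraries and at 23.1 and 80.4 TPM in the controls, and was chosen after its values were seen. Kl, the coreceptor for the phosphate hormone FGF23, was at 126 and 100 TPM in the knockout libraries and at 419 and 214 TPM in the controls, and was likewise chosen after its values were seen.

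**Figure D3:**
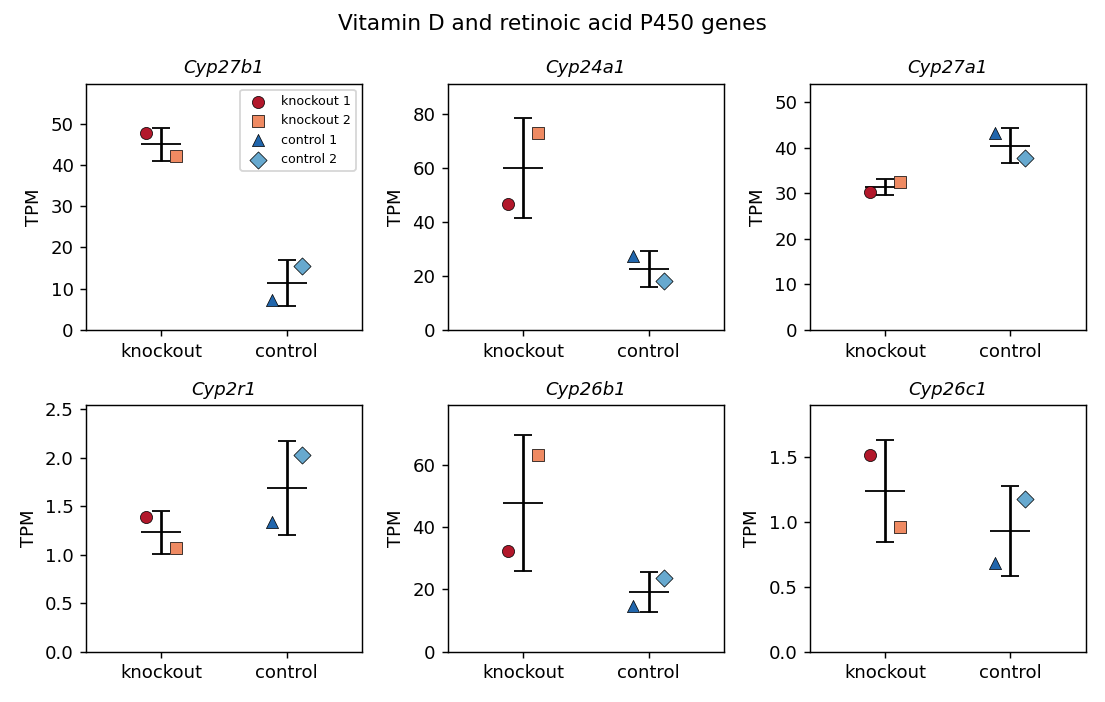
Levels in TPM (vertical axes, from 0) of the 4 vitamin D and 2 retinoic acid P450 genes are shown for the knockout libraries, left, and the control libraries, right, with symbols for single libraries and a bar for the mean and SD (n = 2 each). Both knockout values lie above both control values for Cyp27b1, Cyp24a1 and Cyp26b1, below them for Cyp27a1, and among them for Cyp2r1 and Cyp26c1.

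Retinoic acid is cleared by family 26. Cyp26b1 was at 32.3 and 63.3 TPM in the knockout libraries and at 14.7 and 23.8 TPM in the controls. Its groups did not overlap and the means differed 2.48-fold, although the knockout libraries themselves differed by 0.95 log2 units (log2 fold change 1.23, SE 0.39, adjusted p = 0.199). Without knockout library 2 the difference was 0.75. Cyp26c1, a second retinoic acid hydroxylase, was at 1.52 and 0.958 TPM in the knockout libraries and at 0.684 and 1.18 TPM in the controls, from 8 to 19 reads, with overlap. Of 17 listed genes of retinoid handling, 12 were tested and limma called 0, with 0 lower and 7 higher without overlap, and 0 lower and 3 higher at an unadjusted p below 0.05. All tested genes also leaned to the higher side, with 36.7% higher without overlap and 13.4% at that p. Aldh1a2, which makes retinoic acid, was at 10.5 and 17 TPM in the knockout libraries and at 1.12 and 4.63 TPM in the controls. Stra6, a membrane receptor for the retinol carrier, was at 12.7 and 17.9 TPM against 0.359 and 4.68 TPM in the controls. The retinoic acid receptor gene Rara was at 21.6 and 31.2 TPM in the knockout libraries and 17.8 and 18.9 TPM in the controls.

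The fatty acid and eicosanoid group took in 19 members, the Cyp2j genes, Cyp2c23 (also named Cyp2c44), Cyp2u1 and family 4. Of these, 8 were lower without overlap, 5 higher and 6 overlapped, where 14.3% of all tested genes were lower and 36.7% higher without overlap. Their median log2 fold change was -0.49, and 0.27 without control library 1. Cyp2j11 had the smallest p of any P450 gene. It was at 52.7 and 38.0 TPM in the knockout libraries and at 192 and 151 TPM in the controls, so the mean was 3.78-fold lower (log2 fold change -1.90, SE 0.23, adjusted p = 0.0928). Without each library in turn the difference stayed between -2.13 and -1.68. Cyp2j5, the arachidonic acid epoxygenase of the mouse proximal tubule and the most abundant member, was at 503 and 492 TPM in the knockout libraries and at 1622 and 746 TPM in the controls (log2 fold change -1.14, SE 0.40, adjusted p = 0.230). The knockout values were close together and the control values apart, and the difference was -0.58 without control library 1 and -1.70 without control library 2.

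The Cyp2j genes lie side by side on chromosome 4 between positions 96027534 and 96664154 (GRCm38) and differed in direction within the cluster. In order along the chromosome, Cyp2j13 overlapped, Cyp2j7 and Cyp2j11 were lower, Cyp2j6 and Cyp2j9 were higher, and Cyp2j5 was lower. All tested genes were lower without overlap in 14.3% and higher in 36.7%, with a median log2 fold change of 0.17. Cyp2j6 was at 39.1 and 31.4 TPM in the knockout libraries and at 28.6 and 26.9 TPM in the controls (log2 fold change 0.33, SE 0.18, limma adjusted p = 0.431). Cyp2j9 was at 29.8 and 29.99 TPM in the knockout libraries and at 20.9 and 21.7 TPM in the controls (log2 fold change 0.47, SE 0.16, limma adjusted p = 0.230). With median-ratio scaling the difference was 0.10 for Cyp2j6 and 0.24 for Cyp2j9. Cyp2j7 was low, between 4.89 and 4.98 TPM in the knockout libraries and between 5.33 and 7.78 TPM in the controls (log2 fold change -0.33, SE 0.28, limma adjusted p = 0.602). At most 2.32% of the 50-base windows of a Cyp2j member recurred in another Cyp gene.

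The promoters of the 2 Cyp2j genes that were lower and above 100 TPM in the controls are printed, with motif matches in capitals. Cyp2j6 and Cyp2j9, both higher, lie between them. Both lie on the minus strand, Cyp2j11 at chr4:96348631-96348930 and Cyp2j5 at chr4:96664070-96664369 (RefSeq, GRCm38.p6).
Cyp2j11: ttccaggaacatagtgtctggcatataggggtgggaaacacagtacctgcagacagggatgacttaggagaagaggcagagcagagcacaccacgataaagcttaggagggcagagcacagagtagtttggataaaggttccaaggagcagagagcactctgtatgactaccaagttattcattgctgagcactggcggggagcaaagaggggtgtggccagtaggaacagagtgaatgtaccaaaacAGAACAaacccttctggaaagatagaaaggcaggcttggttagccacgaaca
Cyp2j5: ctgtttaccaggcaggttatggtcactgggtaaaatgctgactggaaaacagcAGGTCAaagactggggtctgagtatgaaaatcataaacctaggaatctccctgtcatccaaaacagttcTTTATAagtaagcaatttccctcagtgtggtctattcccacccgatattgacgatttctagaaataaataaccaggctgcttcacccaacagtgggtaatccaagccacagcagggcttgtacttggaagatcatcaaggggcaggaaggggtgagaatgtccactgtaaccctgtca
The Cyp2j11 window has AGAACA starting 2 bases before the RefSeq start. The Cyp2j5 window has AGGTCA starting 197 bases before the start and TATAAA on the opposite strand at 128 bases before it. None of the motifs was in both windows.

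Cyp2c23, an epoxygenase of arachidonic acid in mouse kidney, was at 10.9 and 9.81 TPM in the knockout libraries and at 16.1 and 47.8 TPM in the controls, lower without overlap (log2 fold change -1.35, SE 0.49, adjusted p = 0.246). Control library 2 was the high one here, and the difference was -2.10 without control library 1 and -0.59 without control library 2. Cyp2u1, a hydroxylase of long-chain fatty acids, was at 6.16 and 7.05 TPM in the knockout libraries and at 11.4 and 8.13 TPM in the controls. It was lower without overlap, with 10.5% of its exon bases shared with another gene.

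Family 4 enzymes hydroxylate the far end of fatty acids, and those of subfamily 4A make the vasoconstrictor 20-HETE from arachidonic acid. All 6 Cyp4a genes had a negative log2 fold change, between -1.64 and -0.12, and the median of the 6 was 0.00 without control library 1. Only Cyp4a10 and Cyp4a31 were lower without overlap, as were 14.3% of all tested genes. Cyp4a10 was at 79.9 and 64.9 TPM in the knockout libraries and at 112 and 183 TPM in the controls (log2 fold change -0.98, SE 0.27, adjusted p = 0.168). Cyp4a31 was at 119 and 105 TPM in the knockout libraries and at 165 and 166 TPM in the controls (log2 fold change -0.56, SE 0.16, adjusted p = 0.173). The controls were close together, with a gap of -0.02 log2 units.

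The other Cyp4a genes split the controls. Cyp4a14 was at 43.4 and 29.1 TPM in the knockout libraries and at 17.6 and 271 TPM in control libraries 1 and 2. Cyp4a12a, which in male mouse kidney is the main 20-HETE synthase and is induced by androgens, went the other way, at 10.7 and 5.04 TPM in the knockout libraries and at 147 and 3.63 TPM in control libraries 1 and 2. The controls thus differed 15.4-fold for Cyp4a14 and 40.4-fold for Cyp4a12a, in opposite directions, with the knockout libraries between them for both genes. Xist was at 0.109 and 0.127 TPM in the knockout libraries and at 0.09994 and 173 TPM in control libraries 1 and 2. Whether the sex of the mice bears on Cyp4a14 or Cyp4a12a was not tested. Cyp4a12b was at 5.13 and 4.04 TPM in the knockout libraries and at 11.1 and 2.58 TPM in the controls, and Cyp4a32 at 4.09 and 3.43 TPM against 7.40 and 2.19 TPM. The split between these genes is uncertain. Cyp4a12a and Cyp4a12b share 48.9% of the windows of the first, and 43.8% of the windows of Cyp4a32 recur in other Cyp genes, as do 29.8% for Cyp4a10 and 19.02% for Cyp4a31.

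Cyp4b1 lies next to the Cyp4a genes on chromosome 4, at 115624725 to 115647723, and its enzyme acts on fatty acids and on foreign compounds. It was at 226 and 197 TPM in the knockout libraries and at 2099 and 174 TPM in control libraries 1 and 2. Control library 1 was 12.04-fold above control library 2, and the knockout libraries lay just above control library 2. The log2 fold change of -1.52 (SE 1.10, adjusted p = 0.541) was 0.27 without control library 1 and -3.31 without control library 2. The promoter, on the minus strand at chr4:115647672-115647971, is printed because this gene had the highest level of any P450 gene in a library, with its motif match in capitals.
Cyp4b1: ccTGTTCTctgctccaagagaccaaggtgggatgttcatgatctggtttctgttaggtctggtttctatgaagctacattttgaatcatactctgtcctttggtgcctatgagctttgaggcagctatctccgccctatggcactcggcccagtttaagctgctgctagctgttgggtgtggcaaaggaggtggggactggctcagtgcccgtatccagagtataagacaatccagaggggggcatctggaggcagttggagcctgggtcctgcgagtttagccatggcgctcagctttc
The match is AGAACA on the opposite strand, starting 248 bases before the RefSeq start.

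Of the 4 members of family 4 outside subfamilies 4A and 4B, 3 were higher without overlap, as were 36.7% of all tested genes. Cyp4v3, the mouse counterpart of human CYP4V2, which is mutated in a crystalline retinal dystrophy, was at 16.0 and 11.4 TPM in the knockout libraries and at 4.12 and 4.96 TPM in the controls. The groups were apart and the mean was 3.01-fold higher (log2 fold change 1.39, SE 0.27, adjusted p = 0.110). Exons of Cyp4v3 share 8.22% of their bases with another gene. Cyp4f16 was at 10.4 and 11.7 TPM in the knockout libraries and at 4.24 and 6.46 TPM in the controls (log2 fold change 0.95, SE 0.27, adjusted p = 0.176), with 17.4% of its windows found in other Cyp genes. Its neighbour Cyp4f17 was at 22.2 and 21.7 TPM in the knockout libraries and at 10.3 and 15.3 TPM in the controls (log2 fold change 0.76, SE 0.24, adjusted p = 0.201). Cyp4f13, on the same stretch of chromosome 17, was at 13.1 and 13.9 TPM in the knockout libraries and at 14.3 and 14.1 TPM in the controls. It counts as lower without overlap on a log2 fold change of -0.07.

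The 13 remaining members were grouped under drugs and other foreign compounds. The group is loose, since Cyp2a4 and Cyp2d9 are described below as steroid hydroxylases and no substrate is given for Cyp2t4. Of these 13, 5 were lower without overlap, 4 higher and 4 overlapped, where 14.3% of all tested genes were lower and 36.7% higher. In family 1, which the aryl hydrocarbon receptor induces, the pair of members stood in opposite directions. Cyp1b1, expressed in mesenchymal and vascular cells, was at 4.86 and 10.8 TPM in the knockout libraries and at 1.36 and 2.82 TPM in the controls (log2 fold change 1.47, SE 0.45, adjusted p = 0.193). Cyp1a1 was at 0.802 and 1.201 TPM in the knockout libraries and at 4.13 and 1.81 TPM in the controls, from 16, 28, 77 and 27 reads (log2 fold change -0.93, SE 0.40, adjusted p = 0.316). Ahr, the receptor gene, was at 7.39 and 7.47 TPM in the knockout libraries and 5.02 and 7.25 TPM in the controls, and was chosen after its values were seen. The promoters of both genes are printed because the receptor is known to act through the core GCGTG, in capitals, together with the TATA box. Cyp1b1 lies on the minus strand at chr17:79715012-79715311 and Cyp1a1 on the plus strand at chr9:57697363-57697662.
Cyp1b1: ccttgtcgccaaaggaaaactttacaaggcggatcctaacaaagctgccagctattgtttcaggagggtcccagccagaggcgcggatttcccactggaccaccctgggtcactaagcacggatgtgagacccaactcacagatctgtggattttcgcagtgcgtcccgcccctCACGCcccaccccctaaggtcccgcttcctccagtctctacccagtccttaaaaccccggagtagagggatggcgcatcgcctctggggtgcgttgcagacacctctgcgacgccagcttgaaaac
Cyp1a1: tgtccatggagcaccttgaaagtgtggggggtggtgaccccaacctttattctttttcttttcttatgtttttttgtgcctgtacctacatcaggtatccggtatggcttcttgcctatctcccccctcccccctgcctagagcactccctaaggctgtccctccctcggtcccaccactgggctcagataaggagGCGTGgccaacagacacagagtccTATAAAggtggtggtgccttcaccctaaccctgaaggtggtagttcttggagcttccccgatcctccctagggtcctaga
Each window holds the core once, on the opposite strand and starting 76 bases before the RefSeq start in Cyp1b1, and on the gene's own strand 54 bases before it in Cyp1a1. Cyp1a1 has TATAAA at 30 bases before the start, where Cyp1b1 has none. The same core was thus present with both directions of value, and it is in 32.4% of all windows.

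Of the 4 Cyp2d genes, all on chromosome 15, 2 were lower without overlap and 2 overlapped. Of all tested genes, 14.3% were lower and 36.7% higher without overlap. Cyp2d26, the fourth most abundant member, was at 93.6 and 85.3 TPM in the knockout libraries and at 173 and 308 TPM in the controls (log2 fold change -1.36, SE 0.30, adjusted p = 0.122). Cyp2d12 had the largest negative difference of the 42, at 0.972 and 0.894 TPM in the knockout libraries and at 6.01 and 12.3 TPM in the controls, from 27, 29, 156 and 256 reads. Its mean TPM was 9.84-fold lower (log2 fold change -2.32, SE 0.39, adjusted p = 0.106). Both knockout values were under the limit of 1 TPM, so Cyp2d12 is a member only through its control values. Its rank also depends on the TPM added before the log. With 5 TPM added, its difference was -1.22 and that of Cyp2j11 was -1.82. Cyp2d22 was at 21.3 and 20.7 TPM in the knockout libraries and at 9.83 and 23.9 TPM in the controls, with overlap. Cyp2d9, a testosterone hydroxylase of male mouse liver, was at 0.526 and 2.92 TPM in the knockout libraries and at 5.79 and 1.41 TPM in the controls, where 16.7% of its windows recur in other Cyp genes.

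Cyp2e1, which oxidises ethanol and acetone, was at 682 and 552 TPM in the knockout libraries and at 1625 and 259 TPM in control libraries 1 and 2. The knockout libraries lay between the controls, so that the fitted difference was -0.08 (SE 0.83, adjusted p = 0.972), 1.24 without control library 1 and -1.40 without control library 2. Cyp2a4, a steroid 15-alpha-hydroxylase, was at 26.04 and 22.1 TPM in the knockout libraries and at 161 and 17.1 TPM in the controls. Cyp2a5, the coumarin 7-hydroxylase, was at 27.2 and 21.8 TPM in the knockout libraries and at 45.3 and 34.5 TPM in the controls (log2 fold change -0.68, SE 0.22, adjusted p = 0.206). The pair is uncertain as single loci, since 38.0% of the windows of Cyp2a4 and 37.0% of those of Cyp2a5 recur in other Cyp genes.

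Cyp2s1, an epithelial P450 that dioxin induces, was higher in both knockout libraries, at 34.2 and 24.8 TPM, against 15.0 and 12.7 TPM in the controls (log2 fold change 1.02, SE 0.23, adjusted p = 0.124). Its difference was between 0.80 and 1.248 over all settings tried. Cyp3a13, the 1 member of the drug-metabolising family 3, was at 5.20 and 2.75 TPM in the knockout libraries and at 2.28 and 1.202 TPM in the controls (log2 fold change 0.84, SE 0.40, adjusted p = 0.346). Cyp2t4 was at 2.62 and 3.26 TPM in the knockout libraries and at 0.996 and 1.93 TPM in the controls, from 11 reads in the lowest library. Cyp2f2, known from the club cells of the airway, was at 1.86 and 2.83 TPM in the knockout libraries and at 3.91 and 3.88 TPM in the controls, and 13.5% of its exon bases overlap another gene.

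The 3 members that act on oxysterols and in bile acid synthesis showed small differences. Cyp39a1, an oxysterol 7-alpha-hydroxylase, was at 14.5 and 12.7 TPM in the knockout libraries and at 12.2 and 10.8 TPM in the controls, higher without overlap by 0.22 on the log2 scale (SE 0.20, adjusted p = 0.630). That is near the median of 0.17 over all tested genes, and median-ratio scaling took it to 0.003. Cyp7b1, which acts on the same kind of substrate and on steroids, was at 4.90 and 4.14 TPM in the knockout libraries and at 4.49 and 5.35 TPM in the controls. Cyp46a1, the cholesterol 24-hydroxylase known from brain, was at 2.04 and 3.46 TPM in the knockout libraries and at 2.00 and 3.19 TPM in the controls. Groups overlapped for the last 2 genes. Cyp20a1, with little known of its substrates, was at 24.0 and 25.7 TPM in the knockout libraries and at 17.5 and 24.6 TPM in the controls, also with overlap. Cyp17a1, an enzyme of steroid hormone synthesis, was below the limit, at a mean of 0.214 TPM.

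The 2 controls lay further apart than the knockout libraries on 29 of 42 members (69%), against 70.7% of all tested genes. The median size of the gap between them was 0.56 log2 units over the members and 0.39 over all tested genes, while the gap between the knockout libraries was 0.22 and 0.20. In 4 members (Cyp2j13, Cyp4a12a, Cyp4b1 and Cyp2a4) control library 1 was at least 5 times every other library, a limit chosen after the values were seen. That is 9.52% of the members, where 0.253% of all tested genes met it. Cyp2j13, an epoxygenase gene of the Cyp2j cluster, was at 29.8 and 26.9 TPM in the knockout libraries and at 338 and 19.3 TPM in control libraries 1 and 2. Without these 4 genes the summed P450 level was 2041 and 1867 TPM in the knockout libraries and 4266 and 2481 TPM in the controls. Of the 24 proximal tubule markers, 3 met the same limit. Kap was at 1004 and 1202 TPM in the knockout libraries and at 31062 and 987 TPM in the controls, and Slc7a13, a transporter of the last segment of the proximal tubule, at 5.02 and 5.64 TPM against 512 and 6.81 TPM. For all 4 P450 genes the fitted difference was negative and became positive without control library 1, at 0.53, 0.86, 0.27 and 0.46 in the order named. The negative difference and its loss largely follow from the limit, which picks genes high in control library 1.

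**Figure D4:**
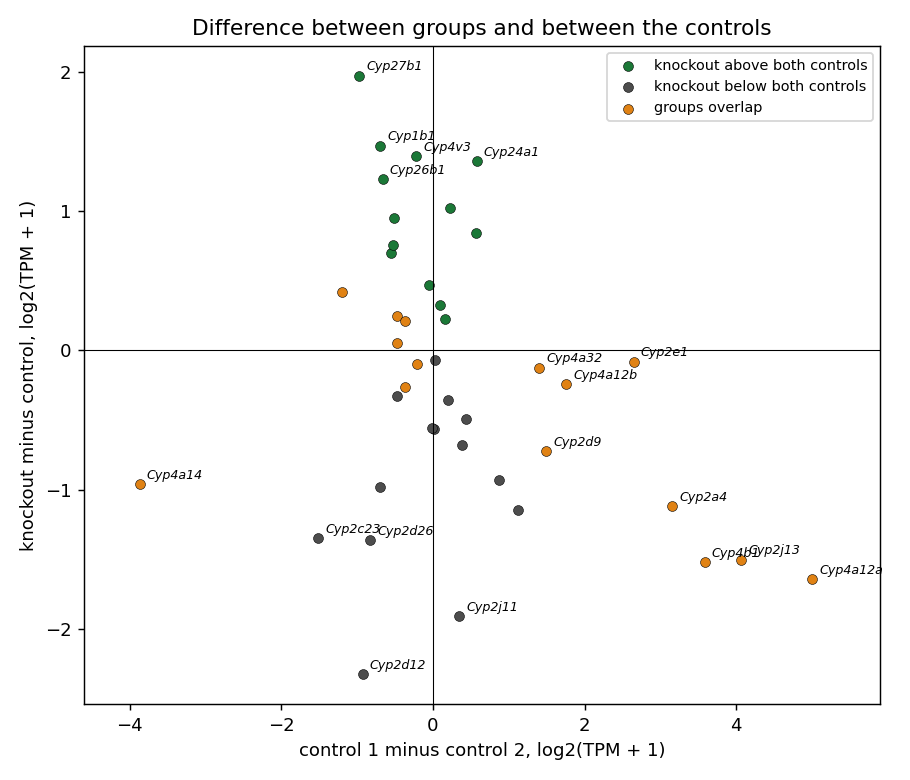
Each point is a P450 gene, placed by the gap between control library 1 and control library 2 (horizontal axis) and by the knockout minus control difference (vertical axis), both in log2(TPM + 1), and coloured by whether the groups overlap. Both axes use the control libraries. Points far to the right (Cyp4a12a, Cyp2j13, Cyp4b1, Cyp2a4) or left (Cyp4a14) have controls that differ by over 3 log2 units, while Cyp27b1, Cyp2j11 and Cyp2d12 have differences between groups that exceed the gap between the controls.

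Genes that serve the P450 enzymes were also read from lists, and limma called 0 of them. Among redox partners, 8 of 10 listed genes were tested, with 5 lower and 1 higher without overlap, and 1 lower and 1 higher at an unadjusted p below 0.05. For this and the lists that follow, the shares over all tested genes were 14.3% lower and 36.7% higher without overlap, and 4.46% and 13.4% at that p. Cyb5a, the cytochrome b5 of the endoplasmic reticulum, was at 61.8 and 66.2 TPM in the knockout libraries and at 153 and 86.2 TPM in the controls. Cyb5b, its mitochondrial outer membrane counterpart, was at 113 and 117 TPM in the knockout libraries and at 163 and 140 TPM in the controls, and the ferredoxin gene Fdx1 at 13.3 and 13.6 TPM against 20.4 and 16.7 TPM. Cyb5r3, the cytochrome b5 reductase, was at 64.3 and 72.5 TPM in the knockout libraries and at 52.0 and 46.3 TPM in the controls. Por, the reductase that feeds microsomal P450 enzymes, was at 70.2 and 74.6 TPM in the knockout libraries and at 198 and 83.0 TPM in the controls, and was chosen after its values were seen.

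Of 16 tested nuclear receptors and sensors, 4 were lower without overlap (all genes 14.3%) and 3 higher (36.7%), with 0 at an unadjusted p below 0.05 in either direction. Hnf4a, a proximal tubule factor that drives many P450 genes in liver, was at 189 and 228 TPM in the knockout libraries and at 316 and 256 TPM in the controls. Nr1i2, the xenobiotic receptor PXR, was at 10.5 and 14.4 TPM in the knockout libraries and at 4.86 and 11.4 TPM in the controls, with overlap, and Nr1h4, the bile acid receptor, at 77.4 and 83.6 TPM against 137 and 84.0 TPM.

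Epoxide and eicosanoid genes had 1 of 10 tested members lower without overlap and 3 higher, with 1 in each direction at an unadjusted p below 0.05, shares near those of all tested genes (14.3% and 36.7% without overlap). Ephx2, the soluble epoxide hydrolase that inactivates the epoxides made by Cyp2j and Cyp2c enzymes, was at 68.5 and 79.0 TPM in the knockout libraries and at 238 and 108 TPM in the controls. Ptgs2, the inducible cyclooxygenase, was at 2.17 and 1.98 TPM in the knockout libraries and at 0.261 and 0.776 TPM in the controls. Ptges, a prostaglandin E synthase, was at 64.2 and 42.6 TPM against 41.6 and 26.6 TPM in the controls, and Pla2g4a, the phospholipase that releases arachidonic acid, at 6.73 and 6.87 TPM against 4.37 and 5.77 TPM.

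Of 13 tested genes of heme, the P450 cofactor, 5 were lower without overlap (all genes 14.3%) and 3 higher (36.7%), with 1 in each direction at an unadjusted p below 0.05. Hmox1, which breaks heme down, was at 25.0 and 27.5 TPM in the knockout libraries and at 17.4 and 14.3 TPM in the controls, and Blvrb, a biliverdin reductase, at 6.73 and 7.74 TPM against 4.51 and 4.77 TPM. Cpox and Uros, enzymes of heme synthesis, were at 11.6 and 12.8 TPM and at 5.74 and 6.45 TPM in the knockout libraries, against 28.5 and 16.3 TPM and 9.32 and 8.68 TPM in the controls.

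Among genes of sterol synthesis and oxysterol handling, 6 of 13 were lower without overlap (all genes 14.3%) and 5 higher (36.7%), with 2 in each direction at an unadjusted p below 0.05. Abca1 and Abcg1, the sterol exporters that oxysterols induce, were at 151 and 146 TPM and at 8.78 and 9.60 TPM in the knockout libraries, against 23.0 and 48.6 TPM and 2.97 and 5.64 TPM in the controls. Hmgcs1, an early enzyme of cholesterol synthesis, was at 64.2 and 62.6 TPM in the knockout libraries and at 162 and 90.1 TPM in the controls. Cyp51, the sterol demethylase left out of the members by its symbol, was at 20.8 and 17.3 TPM in the knockout libraries and at 117 and 33.1 TPM in the controls.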

How the data were processed

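Poly(A) RNA of glomeruli was sequenced in 2 knockout and 2 control libraries, and TPM values of 22809 genes were deposited in 1 table. Tools in the submitters' processing notes are STAR 2.7.9, featureCounts 2.0.0, fastp 0.20 and DESeq2 1.30.1, with build GRCm38.p6 and no roles stated, and the sources used here give neither annotation nor strand setting. Symbols came from GENCODE M21 (22762 IDs matched). TPM times exon length gave whole reads for 98.1% of genes (relative tolerance 1e-06), from 13015925 to 21188798 per library, and 35 of 42 members had at least 20 reads in every library.

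The test was limma 3.58.1 (R 4.3.3) with trend on log2(TPM + 1) for genes with a mean of at least 1 TPM. Its p-values were adjusted over all genes. With 2 libraries a group an exact permutation test cannot go below 0.333 two-sided. Replicates are pools of 2 mice, and whether the experiments pair the libraries is not stated. Members and lists were chosen with earlier results of these data known. Genes named were all vitamin D, retinoic acid and sterol members, families 1 and 3, the 4 most abundant of families 2 and 4, the 10 largest differences without overlap in each direction, and up to 4 per list by smallest p. Values of the other 13 members and of Por, Ahr, Vdr, Gc, Kl, Trpv5, Fgb and Ttr were added after they were seen. A gene that the rule names is not reported here. Sequence sharing was counted in 50-base windows of annotated Cyp transcripts. Of the hepatocyte list 3 of 5 tested genes, of the adrenal list 0 of 3, of the podocyte list 6 of 16, of the endothelial list 0 of 12, of the mesangial list 2 of 10 and of the loop, distal and collecting duct list 7 of 16 were lower without overlap. Higher without overlap were 1, 2, 1, 0, 3 and 1 of these lists in the same order, and all 12 tested immune markers. Over all tested genes 14.3% were lower and 36.7% higher without overlap. Tools were Python 3.11.15, numpy 2.4.6, pandas 2.3.3 and matplotlib 3.10.9.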

Additional observations from a re-analysis of the deposited data

How the results depend on the processing

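Counts of calls, counts without overlap, the median and each member's difference were recomputed under 13 alternatives, except that 11 members lay below a mean of 5 TPM and have no value there. Counts by family, role and list were not. P450 genes called were 0 under 12 of them and 14 without control replicate 2, a fit with 1 control library that is assumed to vary like the knockout libraries and that called 2080 genes in all. The count of all genes called, 1 as reported, was 0 with quantile normalization, without trend, by voom and without control replicate 1, and leaving out a library gave from 0 to 2080. Leaving out each library gave from 0 to 14 P450 calls, from 15 to 22 members lower without overlap, from 14 to 20 higher, and a median from -0.23 to 0.026 (without control replicate 1). With median-ratio scaling or quantile normalization 16 members were lower and 10 higher, and the median was -0.36 and -0.375 in that order. The median over all tested genes also moved, to -0.03 and -0.0342, and leaving out each library gave from 0.0381 to 0.325. Shares of all tested genes without overlap are given for the main setting only. The member counts under these alternatives therefore have no background beside them. The replicate number as a block (replicate block) left the P450 calls at 0 and the total at 1. Same-numbered libraries deviated with a correlation of 0.14 across genes.

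Of the single members, 14 passed the threshold without control replicate 2, and 18 values changed sign. Leaving out libraries took Cyp2a4 from -2.70 to 0.46, Cyp2d22 from -0.18 to 1.02, Cyp2d9 from -1.47 to 0.023, Cyp2e1 from -1.40 to 1.24 and Cyp2j13 from -3.53 to 0.53. It took Cyp4a12a from -4.14 to 0.86, Cyp4a12b from -1.12 to 0.64, Cyp4a14 from -2.90 to 0.97, Cyp4a32 from -0.82 to 0.57, Cyp4b1 from -3.31 to 0.27, Cyp7b1 from -0.21 to 0.0058 and Cyp46a1 from -0.22 to 0.33. Sign turned without control replicate 1 in 10 of these. It turned without control replicate 2 for Cyp4a14 and Cyp7b1, and without knockout replicate 2 for Cyp2e1 (0.07) and Cyp46a1. Quantile normalization turned Cyp2e1 (0.026), Cyp26c1 (-0.061) and Cyp46a1 (-0.20), and median-ratio scaling turned Cyp46a1 (-0.11). The causes were not tested. All other member values kept their sign. Depth limits the low members, since Cyp26c1 rests on 8 to 19 reads and Cyp2r1 on 19 to 23.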
